A study of Mus musculus with 5 samples.

Results

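The cells described here were radial precursors of the cortex of wild-type CD1 mouse embryos at E17.5, under the label of precursors turning glial. Some glial genes were already higher in precursors of E13.5 and E15.5 than in those of E11.5, as given below. They were chosen from the table of cortical cells by measured values: at least 500 UMIs in the cell, at least 3 summed UMIs of Pax6, Sox2, Hes1, Hes5, Slc1a3, Mfge8 and Ttyh1, no UMI of Eomes, and at most 1 summed UMI of Neurod1, Neurod2, Neurod6, Tbr1, Gad1 and Gad2. The rule kept 62 of the 880 cortical cells of E17.5 (7.05%, exact Clopper-Pearson 95% interval 5.44 to 8.94%), and the other 818 cells of the table served for comparison. The series profiled dissected cortices of untreated CD1 embryos of 4 ages between E11.5 and E17.5 by Drop-seq, in which single cells are caught in droplets with barcoded beads and their RNA molecules counted by unique molecular identifiers (UMIs). The same rule chose 547 of 1414 cells at E11.5, 137 of 1125 at E13.5 and 157 of 2955 at E15.5, of 6390 cortical cells in all. The E11.5 suspension was not sorted, and the suspensions of later ages were sorted by flow cytometry for living cells. Each age was 1 library, except that the labels name 2 E15.5 batches. Both lie in a common table, with no batch given for a cell, and were used as 1 group. How many embryos were pooled is not given in the sources used here.

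Radial precursors are the elongated cells that line the ventricle of the embryonic brain and span its wall. They first renew themselves, then give rise to neurons directly or through intermediate progenitors, and late in gestation turn to making astrocytes and oligodendrocytes. Notch signalling, which acts through the repressors of the Hes family and the DNA-binding protein Rbpj, holds them in the precursor state, and nuclear factor I proteins such as Nfia are known for switching on astrocyte genes.

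The genes with the largest ratio of precursors to other E17.5 cells, among genes of at least 50 UMIs that were not used by the rule, included Ednrb, which encodes an endothelin receptor of radial glia and astrocytes, Mlc1, a membrane protein of astrocyte end feet, and Fabp7, a lipid-binding protein of radial glia. Their upstream sequences are shown because these genes are the ones the later results turn on, and each has 1 start in the promoter table of RefSeq for build GRCm38.p6. Each run holds the 250 bases before the start on the strand of the gene, at chr14:103843702-103843951 on the minus strand for Ednrb, chr15:88978554-88978803 on the minus strand for Mlc1 and chr10:57784673-57784922 on the plus strand for Fabp7. Capitals mark matches, on either strand, to the nuclear factor I core TTGGC or the Rbpj site TGGGAA.
Ednrb: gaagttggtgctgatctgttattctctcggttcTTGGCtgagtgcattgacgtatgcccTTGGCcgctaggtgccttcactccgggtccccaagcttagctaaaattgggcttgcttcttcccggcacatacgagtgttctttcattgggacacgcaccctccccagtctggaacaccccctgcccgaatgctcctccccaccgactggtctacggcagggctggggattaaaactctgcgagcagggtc
Mlc1: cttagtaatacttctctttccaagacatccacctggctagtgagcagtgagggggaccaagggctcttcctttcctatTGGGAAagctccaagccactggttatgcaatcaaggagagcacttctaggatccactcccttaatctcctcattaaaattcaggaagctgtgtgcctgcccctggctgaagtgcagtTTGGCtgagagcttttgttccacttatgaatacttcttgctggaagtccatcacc
Fabp7: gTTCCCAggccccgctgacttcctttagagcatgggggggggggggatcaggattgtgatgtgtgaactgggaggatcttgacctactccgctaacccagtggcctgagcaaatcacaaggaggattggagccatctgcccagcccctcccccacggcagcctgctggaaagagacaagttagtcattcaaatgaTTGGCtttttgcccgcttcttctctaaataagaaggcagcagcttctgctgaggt
Ednrb held 2 matches to TTGGC, and Mlc1 and Fabp7 held 1 match to each motif, with no match overlapping another. Other genes with large ratios and a single start, Slc9a3r1, Bcan, Sparc, Rgcc and Mt3, held no match to either motif. Over the 12 genes with the largest ratios, 8 of 17 listed starts had TTGGC in this window (47.1%), beside 41.5% of all 32851 promoters of the table. TGGGAA was in 6 of the 17 (35.3%), beside 21.6% of all. Tnc and Aldoc entered that count with each of their starts, so these are counts of starts and not of genes. These matches describe letters in the window and say nothing of binding.

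The 62 precursors held 139445 UMIs in all, with a median of 2013 UMIs per cell (993 to 5551) and a median of 1339 genes, and the other cells 1813895 UMIs with a median of 1929. Precursors of the earlier ages were deeper, with medians of 3096, 2598 and 2351 UMIs at E11.5, E13.5 and E15.5. Mitochondrial genes took 1.15% of precursor UMIs and 1.49% of those of the other cells. No barcode of the E17.5 cortical table was shared with a cortical table of an earlier age. The summed count of the 7 marker genes reached 44 in the highest cell, with 3 precursors at the limit of 3 and 4 cells just outside it at 2. Among those 4 cells, Fabp7 had 37 and 33 UMIs in the pair with 3 and 0 UMIs of the neuronal list, and 0 UMIs in the others, while the 3 cells at the limit had 0, 26 and 50.

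Levels are UMI counts summed over the cells of a group and scaled to the total of the group as CPM, with exact Poisson 95% intervals, and ratios of levels carry exact conditional binomial 95% intervals. These intervals cover counting error only. With 1 library an age no test between groups was possible, so a gene of at least 20 UMIs is counted as higher or lower by its fold, here at least 2-fold. The 20 UMIs are taken over both groups. A gene scarce in 1 group is thus counted only where it is high in the other, a limit on every share of counted list members. Where genes are ranked by ratio, the ranks cover those with at least 50 UMIs over both groups, without rule, predicted, hemoglobin, ribosomal protein and mitochondrial genes. Since the precursors were picked by measured RNA, the levels against other cells of E17.5 are a description of what the rule selected.

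**Figure D1:**
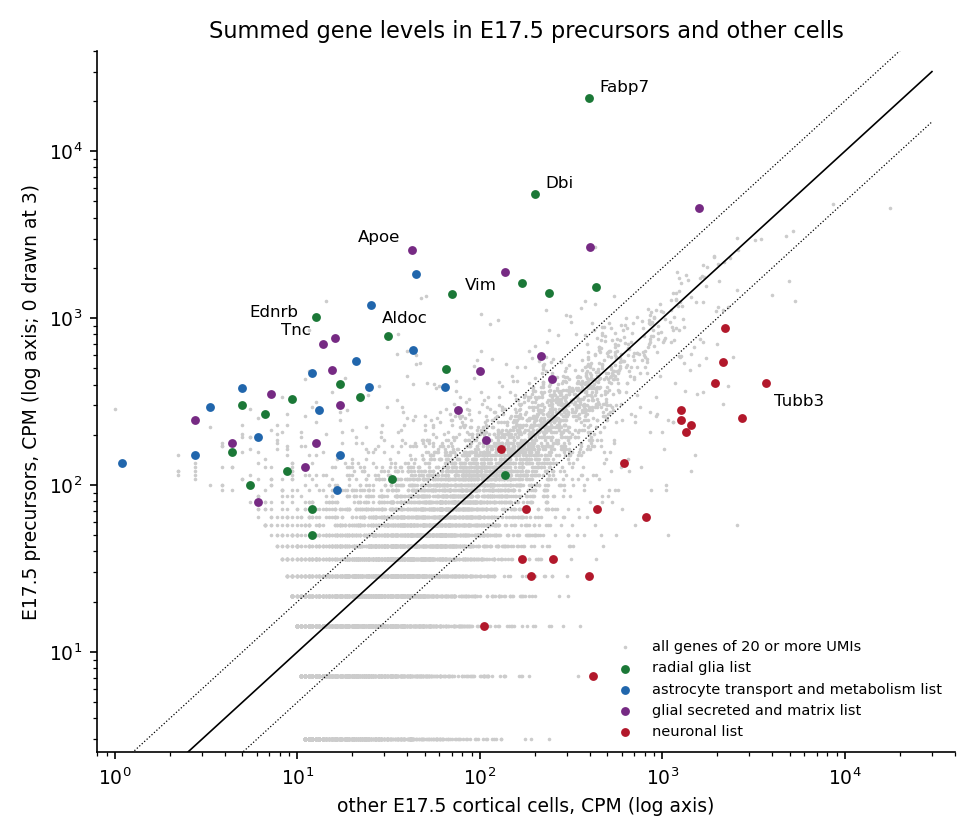
Level of each gene in the 62 E17.5 precursors against the other 818 cells of the cortical table, in CPM on log axes, 1 point a gene of at least 20 UMIs, with equality as a solid line and 2-fold as dotted lines. Points of the radial glia and both glial lists lie above the line apart from 1 gene, Fabp7 highest at 20840 against 397 CPM, and 19 of 20 neuronal genes lie below the lower dotted line.

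Against the other cells of E17.5, 1386 of 9226 genes were at least 2-fold higher in the precursors (15%) and 1592 at least 2-fold lower (17.3%). With the interval of the ratio wholly beyond 2-fold, 446 were higher (4.83%) and 266 lower (2.88%). The median log2 ratio of all genes was 0.00. Under TMM scaling, which matches the bulk of genes between the groups, it was -0.24, and the share of higher among all calls was 32.2% in place of 46.5%.

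The markers that define the label and were used by the rule were present in most precursors. Slc1a3, the glutamate and aspartate transporter of radial glia and astrocytes, was at 1312 CPM (1129 to 1517) in precursors and 47.4 in other cells. Mfge8, a secreted protein of radial glia, was at 1269 and 14.3 CPM, and Ttyh1, a membrane protein, at 1363 and 50.7 CPM. Sox2, which keeps precursors renewing, was at 638 and 39.7 CPM, and Hes5, a Notch target, at 853 and 11.6 CPM. Of the 7 genes chosen as radial precursor markers and not used by the rule, every one was above its level in other cells: Vim, an intermediate filament, at 1391 against 70.6 CPM, Nes, another filament, at 495 against 65.6, Fabp7 at 20840 against 397, Hopx, a homeodomain protein of outer radial glia, at 301 against 4.96, Sox9, a transcription factor of glia, at 337 against 22.1, Phgdh, the first enzyme of serine synthesis, at 265 against 6.62, and Ddah1 at 782 against 31.4.

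Among 21 counted genes of the radial glia list, 20 were at least 2-fold higher than in other cells and none lower, with a median log2 ratio of 4.19. Ednrb had the largest ratio of the ranked genes, 79.7 (51.1 to 130), at 1011 CPM in precursors (851 to 1192) and 12.7 in other cells (8.04 to 19.0). Dbi, the acyl-CoA-binding protein, was at 5515 against 200 CPM. Lhx2, a transcription factor of cortical identity, was the member of the list that was not higher, with 16 UMIs and a ratio of 0.829. At least 1 UMI of Fabp7 was in 61 of 62 precursors (98.4%, 91.3 to 100%) and in 168 of the other cells (20.5%), at the similar median depths given above. After thinning to 1000 UMIs a cell, which kept 61 precursors and 741 other cells, Fabp7 was in 95.1% and 11.1%. Ednrb was then in 49.2% and 0.810%.

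Of 24 listed genes of astrocyte transport and metabolism, 15 had enough UMIs to be counted. All 15 were higher in the precursors, with a median log2 ratio of 5.0. Listed genes that were scarce in the other cells were counted only where they were high in the precursors, which raises this share and median. Mlc1 was at 380 CPM (285 to 497) against 4.96, a ratio of 76.6 (37.5 to 177). Aldoc, the brain form of the sugar-splitting enzyme aldolase, was at 1205 against 25.4 CPM. Mt3, a metal-binding protein, was at 1836 against 44.7 CPM, and Aldh1l1, an enzyme of folate metabolism widely used as an astrocyte marker, at 294 against 3.31 CPM with UMIs in 22 precursors and 4 other cells. Gja1, which encodes the gap junction protein of astrocytes, was at 122 CPM with 17 UMIs, and Aqp4, the water channel of astrocyte end feet, had 16 UMIs in 12 precursors. Hepacam, a partner of Mlc1, was at 136 CPM in 17 precursors. Markers of more mature astrocytes were at 0 UMIs: Gfap, the astrocyte filament, S100b, a calcium-binding protein, Gjb6, a connexin, and Gpr37l1. For a count of 0 in this group, the upper limit of the Poisson interval is 26.5 CPM.

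Secreted and matrix genes of glia were higher for 17 of 19 counted members, with a median log2 ratio of 3.79. Apoe, the lipid carrier of astrocytes, was at 2546 CPM (2288 to 2825) against 42.5 (33.5 to 53.1), a ratio of 60.0 (46.8 to 77.8). Tnc, the matrix protein tenascin C, was at 703 against 13.8 CPM, Bcan, the proteoglycan brevican, at 351 against 7.17 CPM, and Sparc, a collagen-binding protein, at 760 against 16.0 CPM. Sparcl1, a secreted relative of Sparc, was at 1886 against 137 CPM and Ptn, the growth factor pleiotrophin, at 4539 against 1589 CPM. The pair under 2-fold were Vcan, a proteoglycan, and Igfbp2, a binding protein of insulin-like growth factors, each with a ratio of 1.73. Of the other ranked genes with large ratios, Slc9a3r1, a scaffold of membrane proteins, was at 287 against 5.51 CPM, and Rgcc, a regulator of the cell cycle, at 480 against 11.6 CPM.

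Transcription factors and signal mediators of the glial switch differed less from the other cells than those gene groups. Of 12 counted gliogenic factors, 6 were higher and 1 lower. Olig2, a factor of the oligodendrocyte lineage, was at 194 against 4.96 CPM, Sox9 at 337 against 22.1 and Olig1 at 294 against 12.1. Nfia was at 222 against 118 CPM and Nfib at 466 against 825, and Nfix was the lower gene, at 265 against 669 CPM. Among the receptors and signal carriers of gliogenic cytokines, Stat3 was at 35.9 CPM with 5 UMIs, Il6st at 35.9 with 5 and Lifr at 7.17 with 1, too few for the size count. Of 10 counted Notch genes apart from those of the rule, 3 were higher and 2 lower. Lfng, an enzyme that modifies Notch, was at 136 against 2.76 CPM and Nrarp, a Notch target that feeds back on the pathway, at 172 against 10.5 CPM. Notch1 was at 35.9 CPM with 5 UMIs in precursors. Of 11 counted genes of bone morphogenetic protein signalling and its Id targets, 4 were higher and 2 lower, with Id3 at 803 against 35.8 CPM, Id1 at 172 against 11 and Id2, which neurons also express, at 524 against 1579.

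Fatty acid oxidation genes were higher than in other cells for 11 of 11 counted members, with a median log2 ratio of 2.17. Acadl, which starts the oxidation of long chains, was at 215 against 7.17 CPM, and Cpt1a, the carrier step into mitochondria, had 10 UMIs in 8 precursors and none in the other cells. Of 13 counted genes of cholesterol synthesis 6 were higher and none lower, with Hmgcs1, an early enzyme of the pathway, at 853 against 421 CPM and Insig1, its regulator, at 172 against 41.3 CPM. Among cell-cycle genes, 17 of 20 counted S phase genes and 13 of 14 counted G2/M genes were higher than in the other cells. Mki67, a marker of cycling cells, was at 201 against 7.72 CPM and Mcm3, part of the DNA helicase, at 165 against 5.51 CPM.

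Neuronal genes were lower in the precursors for 19 of 20 counted members, with a median log2 ratio of -2.63. The neuronal list summed to 4109 CPM in precursors and 21766 CPM in the other cells. Tubb3, the neuronal tubulin, was at 409 against 3693 CPM, and Stmn2, a microtubule regulator, at 251 against 2735 CPM. The neuronal gene that was not lower was Sox5, a factor of deep-layer neurons, at 165 against 131 CPM. The 12 lowest ranked ratios belonged to genes with 1 or 2 UMIs in the precursors. Bhlhe22, a factor of upper-layer neurons, had 1 UMI against 753, a ratio of 0.0173 (0.000437 to 0.0965). Hs6st2, an enzyme that sulfates heparan chains, had 1 against 626, and Cnr1, the cannabinoid receptor, 1 against 308. L1cam, an axonal adhesion protein, had 1 against 306, Dync1i1, a dynein chain, 2 against 521, and Camk2b, a synaptic kinase, 2 against 432. Sobp, Phactr1, Tenm4, Add2, Znrf2 and Runx1t1 made up the rest of the 12.

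Against precursors chosen by the same rule at E11.5, genes of glial transport, matrix and secretion were higher at E17.5, and genes of the cell cycle and of the early neuroepithelium were lower. Of 9051 genes, 1530 were at least 2-fold higher (16.9%) and 1322 lower (14.6%), and with the interval wholly beyond 2-fold 333 were higher (3.68%) and 117 lower (1.29%). The median log2 ratio of all genes was 0.03. Under TMM scaling it was -0.24, with 1006 higher and 1962 lower genes, so that 33.9% of calls were higher in place of 53.6%. Age cannot be told apart from library here, nor from the sort for living cells, which the E11.5 suspension did not have.

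**Figure D2:**
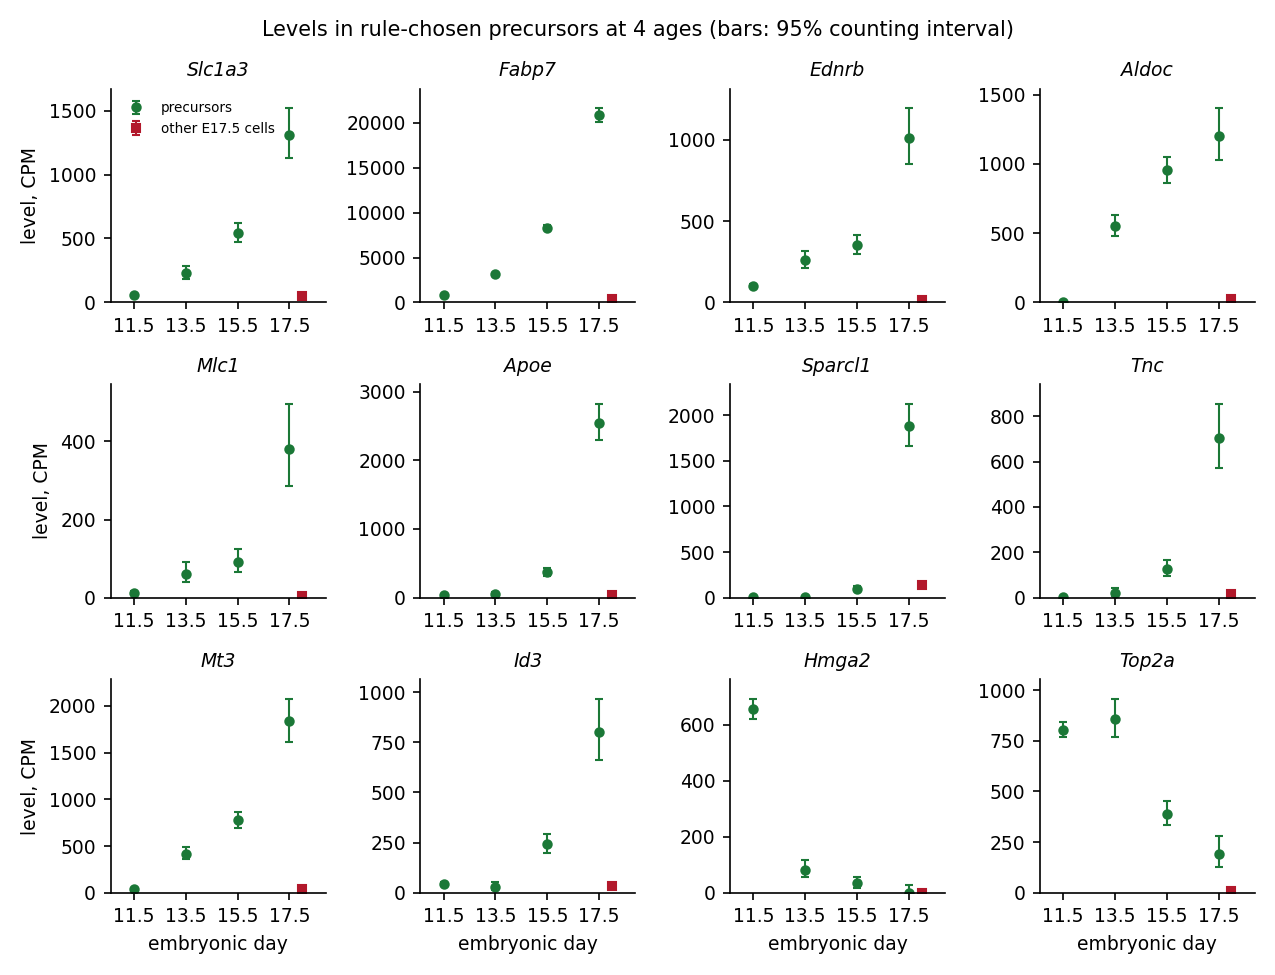
Level of 12 genes in CPM on linear axes from 0, in precursors chosen by the same rule at 4 embryonic days (green circles) and in the other cells of E17.5 (red squares, drawn beside E17.5), with exact Poisson 95% intervals as bars. Apoe and Sparcl1 were below 400 CPM until E15.5 and at 2546 and 1886 CPM at E17.5, whereas Hmga2 was at 656 CPM at E11.5 and 0 at E17.5.

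The radial glia list summed to 6827, 13503, 22051 and 37061 CPM at the 4 ages from youngest to oldest, the order of all such values here, but its members did not move alike. Fabp7 was at 798, 3116, 8327 and 20840 CPM, and Dbi at 809, 2445, 4124 and 5515 CPM. Slc1a3 and Mfge8 are not in this list but are genes of the rule that chose the cells at every age. Slc1a3 was at 54.6, 230, 543 and 1312 CPM and Mfge8 at 28.0, 200, 531 and 1269, each highest at E17.5. Fabp7, Dbi, Slc1a3 and Mfge8 had intervals at E17.5 above those of E15.5. Ptprz1, a receptor phosphatase of radial glia and oligodendrocyte precursors, was at 163, 294, 584 and 1420 CPM. In contrast Vim was at 1508, 1669, 1888 and 1391 CPM and Nes at 596, 847, 668 and 495. Sox2, also a gene of the rule and not of the list, was at 654, 860, 673 and 638. Emx2, a factor that patterns the cortex, was at 345, 172, 208 and 108 CPM, and Lhx2 at 319, 230 and 251 CPM at the earlier ages, with a ratio of 0.360 between E17.5 and E11.5. Both were lowest at E17.5. Of 22 counted radial glia genes, 10 were at least 2-fold higher than at E11.5 and 2 lower, with a median log2 ratio of 0.81.

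Of 15 counted genes of astrocyte transport and metabolism, 12 were higher than at E11.5 and none lower, with a median log2 ratio of 5.06. Their summed level was 877, 2507, 4040 and 7530 CPM at the 4 ages. Aldoc was at 5.90, 550, 955 and 1205 CPM, and Ndrg2, a stress-regulated protein of astrocytes, was at 5.41, 310, 421 and 645 CPM. Mlc1 was at 10.8, 61.4, 90.9 and 380 CPM, a ratio of 35.1 between E17.5 and E11.5. Slc4a4, the bicarbonate transporter of astrocytes, was at 8.36, 20.5, 19.1 and 280 CPM, a difference confined in these libraries to the last age. Aqp4 had 2 UMIs at E11.5, none at E13.5 and E15.5, and 16 at E17.5. Gja1 was at 102, 79.4, 50.3 and 122 CPM.

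Of 18 counted secreted and matrix genes, 16 were higher than at E11.5 and 1 lower, again with a median log2 ratio of 5.06. Tnc was at 0.492, 20.5, 127 and 703 CPM, and its E11.5 level was 1 UMI, which gives a ratio of 1429 with an interval of 250 to 56993. Sparcl1 was at 3.94, 5.12, 95.7 and 1886 CPM, a ratio of 479 (240 to 1122). Apoe was at 33.9, 51.2, 369 and 2546 CPM, a ratio of 75 (57.8 to 98.5). Bcan was at 0, 48.6, 95.7 and 351 CPM, at least 238-fold higher at E17.5 than at E11.5 when the E11.5 group is set to 3 counts. Serpine2, a secreted protease inhibitor, was at 10.3, 0, 59.8 and 488 CPM. The lower gene of the list was Mdk, the growth factor midkine, at 1465, 1116, 1276 and 595 CPM, while its relative Ptn was at 300, 1608, 2293 and 4539 CPM. Other genes among the 12 largest ratios were Mmd2, a membrane protein, at 2.46, 76.8, 146 and 394 CPM, Rlbp1, a retinaldehyde-binding protein of glia, at 9.84, 200, 342 and 423, and Lxn, a carboxypeptidase inhibitor, at 8.86, 48.6, 120 and 430. Egr1, an immediate early gene, also was among the 12, at 6.40, 131, 136 and 273 CPM.

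The regulators had other time courses than the genes above. Nfia was at 29.5, 394, 385 and 222 CPM, Nfib at 104, 868, 761 and 466, and Nfix at 10.3, 287, 345 and 265. These 3 genes were thus already above their E17.5 level at E13.5. Zbtb20, a factor of hippocampal and astrocyte development, was at 61.0, 481, 467 and 445 CPM. Sox9 was at 364, 535, 539 and 337 CPM. Sox8 had 3 E11.5 UMIs and lay at 48.6, 55.0 and 78.9 CPM later. In all, 10 of 14 counted gliogenic factors were higher than at E11.5 and none lower, with a median log2 ratio of 2.13. In the precursors under 10 cell-cycle UMIs described later, of which E11.5 had 11, that median was -0.18 and the log2 ratio of Nfia was -0.38. Id3 was at 45.8, 30.7, 242 and 803 CPM and Id1 at 10.8, 20.5, 120 and 172, whereas Id4, the Id gene of early precursors, was at 1429, 986, 783 and 359. Hes5 and Hes1, both genes of the rule, were at 393, 461, 314 and 853 CPM and at 269, 238, 268 and 251. Notch1 was at 62.5, 128, 120 and 35.9.

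Of 26 counted genes in each cycle list, 19 of S phase and 24 of G2/M had an E17.5 level 2-fold lower or beyond and none were higher, with median log2 ratios of -1.30 and -1.87. The S phase list summed to 6794, 5256, 4641 and 2553 CPM and the G2/M list to 9220, 8900, 6386 and 2811 CPM. Top2a, which untangles DNA at division, was at 805, 860, 390 and 194 CPM. Bub1, a spindle checkpoint kinase, had 401 UMIs at E11.5 and 1 at E17.5. The 12 lowest ranked ratios also held the division genes Dlgap5, Ncaph, Aurka, Kif4 and Cep55, each with 1 UMI at E17.5. Of 11 counted early neuroepithelial genes 8 were lower and none higher. Hmga2, which encodes a chromatin protein of early progenitors, was at 656, 81.9, 33.5 and 0 CPM, at least 30.5-fold lower at E17.5 when that group is set to 3 counts. Crabp2, a retinoic acid carrier, was at 416, 20.5, 28.7 and 0 CPM and Igf2bp1, an RNA-binding protein, at 269, 136, 64.6 and 14.3. Isyna1, Acvr2b and Hs6st2 completed the 12, each with 1 UMI at E17.5.

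The E15.5 precursors, the nearest in age, differed from those of E17.5 in fewer genes. Of 5673 genes 361 were at least 2-fold higher at E17.5 (6.36%) and 594 lower (10.5%), with 57 higher (1%) and 23 lower (0.405%) where the interval lay wholly beyond 2-fold. The median log2 ratio of all genes was -0.09. Secreted and matrix genes were higher for 14 of 19 counted members and lower for 1, with a median log2 ratio of 1.88. For transport and metabolism, 10 of 15 were higher and none lower, with a median of 1.28. Of 22 counted radial glia genes, 3 were higher and 2 lower, with a median of 0.05. Both comparisons between ages share the E17.5 cells, so their values are not independent of each other.

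Sparcl1 had the largest ratio to E15.5 of the ranked genes, 19.7 (14.1 to 28.2), with UMIs in 37 of 62 precursors. Olig1 had a ratio of 8.19 (4.44 to 15.9), Serpine2 of 8.15, Apoe of 6.91 (5.70 to 8.40) and Tnc of 5.54 (3.93 to 7.89). S100a16, a calcium-binding protein, and Phyhipl followed with 5.03 and 4.64. Ncan, the proteoglycan neurocan, Mlc1 and Cspg5, another proteoglycan, had ratios of 4.18, 4.18 and 4.03. Mapt, the microtubule protein tau of neurons, also was among the 12, with 229 CPM in E17.5 precursors, 50.3 at E15.5 and 1443 in the other cells of E17.5. The neuronal list as a whole summed to 1689, 2128, 2585 and 4109 CPM in the precursors of the 4 ages, and its part in the age differences was not tested. The lowest ratio of the ranked genes was that of Fezf2, a factor of deep-layer neurons and their precursors, with 2 UMIs at E17.5 and a ratio of 0.113 (0.0133 to 0.429). Grb10, a growth-inhibiting adaptor, was at 256 CPM at E15.5 and 50.2 at E17.5. Cdc20 and Ube2c, which drive exit from mitosis, were at 182 and 347 CPM at E15.5 and 35.9 and 78.9 CPM at E17.5. Suz12, a subunit of Polycomb repressive complex, was at 172 and 35.9 CPM. Ppil1, Arvcf, Hist1h2al, Tsen15, Esco2, Nsmce4a and Zfp553 were the rest of the 12.

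**Figure D3:**
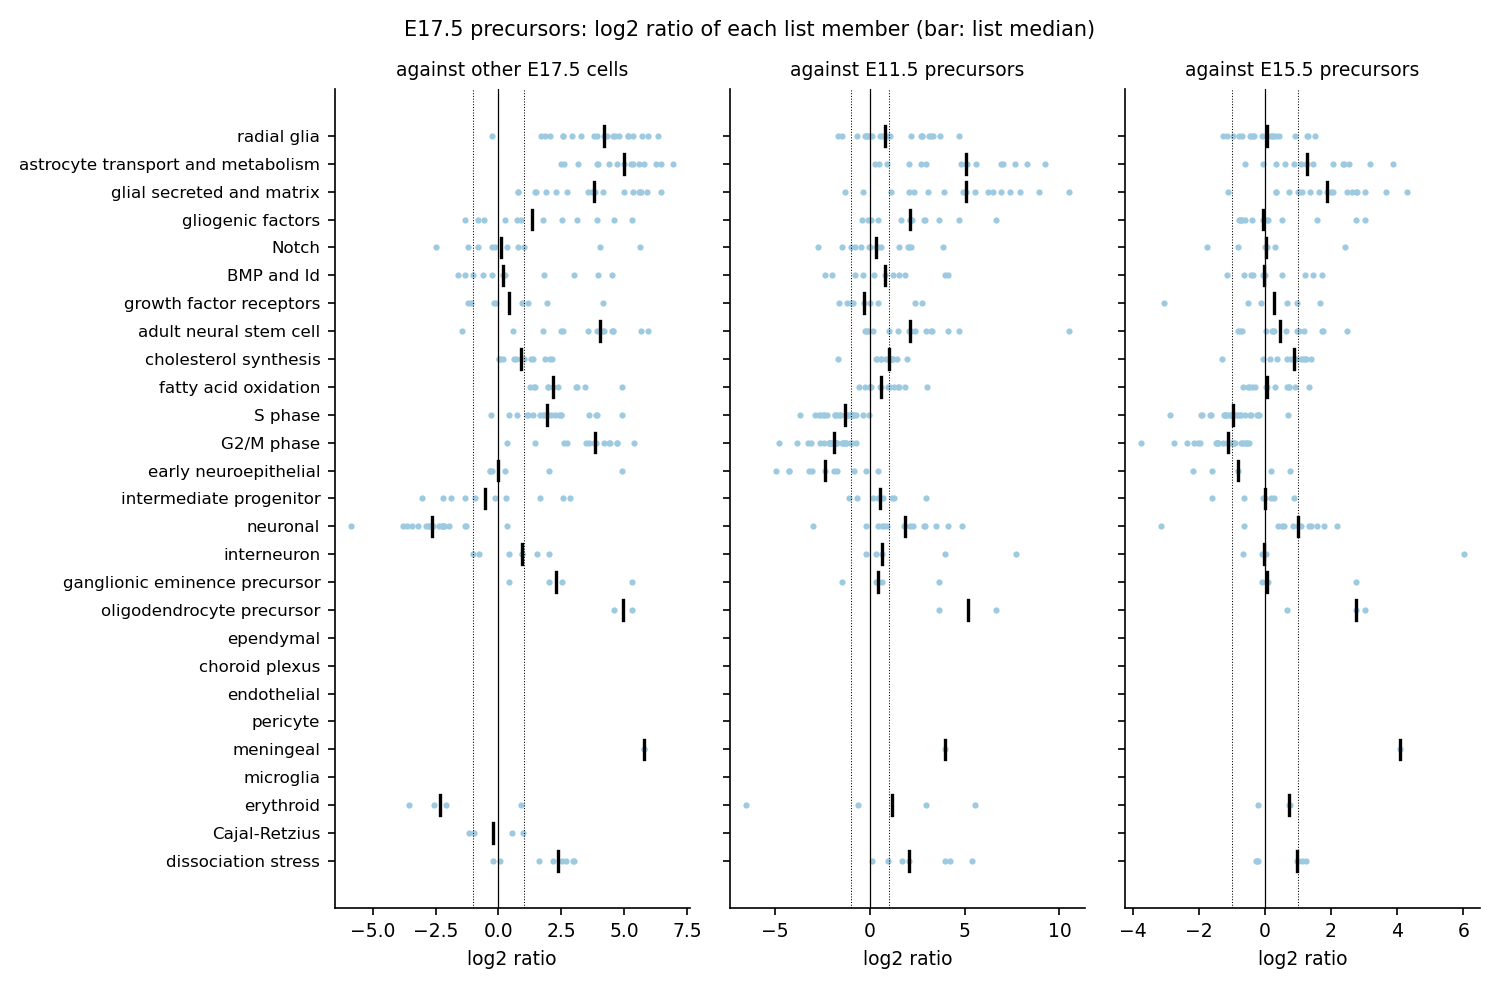
Log2 ratio of E17.5 precursors to other E17.5 cells, E11.5 precursors and E15.5 precursors for each counted member (points) of each gene list (rows), with black bars at list medians, a solid line at 0 and dotted lines at 2-fold. The astrocyte transport and the glial secreted lists lie to the right in all 3 panels, with medians of 5.0, 5.06 and 1.28 for the first, and the cell-cycle lists lie right of 0 against other cells and left of 0 against both earlier ages.

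Since the cell-cycle lists were lower at E17.5, the levels were also taken over precursors with under 10 UMIs of both cycle lists. This division was chosen after seeing the data. It kept 11 of 547 precursors at E11.5, 30 of 137 at E13.5, 47 of 157 at E15.5 and 46 of 62 at E17.5. Their S phase list still summed to 3742, 1444, 1709 and 920 CPM and their G2/M list to 3338, 992, 1035 and 629 CPM. A fixed count of UMIs also favors shallow cells, so these cells were not matched between ages for cycle or depth. In them the astrocyte transport list summed to 506, 2957, 4960 and 9583 CPM and the glial secreted list to 4653, 5410, 8547 and 21040 CPM. Apoe was at 506, 69.6, 798 and 3551 CPM, Sparcl1 at 0, 17.4, 101 and 2305, Tnc at 0, 17.4, 169 and 815, and Fabp7 at 809, 2679, 9031 and 24847. The order E13.5, E15.5, E17.5 was therefore the same in these cells as in all precursors for these genes. The gliogenic list summed to 1618, 2748, 3318 and 2992 CPM in these cells, beside 877, 3062, 3042 and 2933 CPM in all precursors. The 11 cells of E11.5 are too few to place that age for single genes.

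The share of cells that met the rule depended on depth, because a cell with more UMIs reaches 3 marker UMIs more easily. It was 38.7% at E11.5 (36.1 to 41.3%), 12.2% at E13.5 (10.3 to 14.2%), 5.31% at E15.5 (4.53 to 6.18%) and 7.05% at E17.5. With each cell thinned to 1000 UMIs and the rule applied afterwards, the shares were 18.2% (16.0 to 20.5%), 10% (8.22 to 12.1%), 4.69% (3.94 to 5.53%) and 7.36% (5.65 to 9.39%), leaving out shallower cells.

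Within the 62 precursors the leading genes varied widely from cell to cell. Fabp7 took between 0 and 55.0 of every 1000 UMIs, with a median of 19.7, and was at 0 UMIs in 1 cell. Apoe had a median of 3 UMIs per cell with 20 cells at 0, Mt3 a median of 2 with 19 cells at 0, and Ptn a median of 8 with no cell at 0. Cell-cycle UMIs were 1.66 per 1000 at the median and 20.2 at most, and 60 of 62 cells held at least 1.

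The 16 precursors with at least 10 cycle UMIs had lower levels of many glial genes than the other 46. Their median depth was 2998 UMIs against 1648, so the division also follows depth. Fabp7 was at 14414 CPM in the 16 cells and 24847 CPM in the 46, Apoe at 934 and 3551, Mt3 at 747 and 2515, and Slc1a3 at 653 and 1723. Aldh1l1 was at 93.4 and 419 CPM. Vim was level, at 1363 and 1409 CPM. Higher in the cycling cells were Ccnd1, the cyclin that drives entry into the cycle, at 541 against 93.1 CPM, and Hopx at 523 against 163. The Hopx value rested on 42 UMIs in 14 precursors, of which 1 cell held 12. The part of depth in these differences was not tested.

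**Figure D4:**
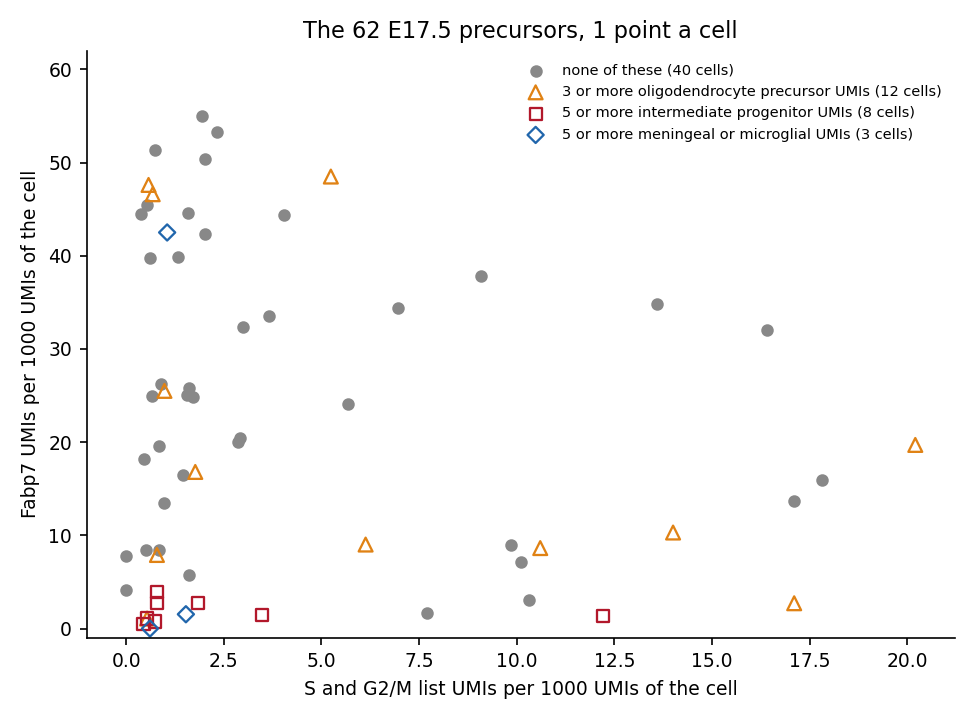
Fabp7 UMIs per 1000 UMIs of the cell against UMIs of the S phase and G2/M lists per 1000, linear axes, 1 point for each of the 62 precursors, with symbols for cells that carry UMIs of other lists. The 8 cells with at least 5 intermediate progenitor UMIs lie low, at 1948 CPM of Fabp7 when summed, and the cells with at least 3 oligodendrocyte precursor UMIs are spread over both axes.

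A set of 12 precursors carried at least 3 UMIs of the oligodendrocyte precursor list. These held all 8 UMIs of Pdgfra, the growth factor receptor of that lineage, and all 6 of Cspg4, its NG2 proteoglycan. Olig1 was at 1140 CPM in these cells and 55.2 in the other 50, and Olig2 at 749 and 36.8. Pdgfra, Cspg4, Olig1 and Olig2 are all genes of the list that chose the cells. Fabp7 was at 17916 and 21665 CPM, Sparcl1 at 2867 and 1609, Id3 at 1173 and 699, and Apoe at 1010 and 2979. A single cell held 23 of the 36 Id3 UMIs of the 12 cells and 31 of their 88 Sparcl1 UMIs. Hopx had no UMI in the 12 cells and 42 in the rest. Sox10, which marks the committed lineage, had 3 UMIs in all 62 precursors, Gpr17 1 and Lhfpl3 none. The list summed to 18.7, 38.4, 124 and 617 CPM at the 4 ages and to 25.4 CPM in the other E17.5 cells. The 42 precursors with no UMI of Pdgfra, Olig1, Olig2, Sox10 or Cspg4 were also compared with the other cells. Of 9109 tested genes, 1726 were at least 2-fold higher in these precursors and 1455 lower. All 62 precursors gave 1386 higher and 1592 lower of 9226 tested genes. The part of the smaller number of cells in this difference was not tested.

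A set of 8 precursors, 1 of which is also among the 12 above, held at least 5 UMIs of the intermediate progenitor list, although Eomes was 0 in every member by the rule. They had 52 of the 56 UMIs of Gadd45g, a stress and differentiation gene, and 15 of the 24 of Hes6, an antagonist of Hes1. Both are genes of the list that chose the cells, and 1 cell held 24 of the Gadd45g UMIs. Fabp7 was at 1948 CPM in them and 23818 in the other 54, Ptn at 1264 and 5056, and the glial secreted list at 5160 and 18912 CPM. Tnc, Bcan, Id3 and Aldh1l1 were at 0 UMIs in the 8 cells. Dbi was at 4107 and 5737 CPM and Sox2 at 632 and 639. Pax6, a gene of the rule that promotes neurogenesis, was at 579 against 149 CPM. It had 11 UMIs in the 8 cells, and 1 cell held 7 of them.

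The 11 precursors with at least 10 UMIs of the BMP and Id list held 88 of the 112 UMIs of Id3, a gene of that list. Id3 made up 88 of the 196 list UMIs of these cells. Their median depth was 2606 UMIs against 1910, so the division also follows depth. Sparcl1 was at 3674 CPM in these and 1425 in the other 51, and Tnc at 1295 and 550. Slc1a3 was at 1959 and 1146, and the G2/M list at 6508 and 1858. Levels of Fabp7 were 21274 and 20728 CPM. A single cell, also among the 12 with oligodendrocyte precursor UMIs, held 82 of the 186 G2/M UMIs of the set and 31 of its 105 Sparcl1 UMIs. The part of depth in these differences was not tested.

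Markers of the other cell types listed were unevenly spread over the precursors. Pericyte genes had 25 UMIs in 14 precursors (22.6%, 179 CPM), against 4 of the other cells (0.489%, 2.76 CPM). Of these, 11 were of Vtn, the adhesion protein vitronectin, in 2 cells, 6 were of Cspg4, which oligodendrocyte precursors share, and 4 were of Pdgfrb, the growth factor receptor of pericytes, in 4 cells. A total of 60 meningeal UMIs came from 6 precursors, and 51 of them, with all those of Col3a1 and Dcn, from 1 cell that had a marker sum of 3 and no Fabp7. The 23 microglial UMIs came from 2 cells. The 3 cells concerned had a glial secreted level of 31340 CPM against 16524 in the other 59, and without them Sparcl1 was at 1783 CPM, Apoe at 2489 and Fabp7 at 20974. Of the choroid plexus list, Enpp2 had 4 UMIs and the other 5 genes 0, endothelial Cldn5 was at 0, and all 5 Cajal-Retzius genes were at 0. The part of doublets was not tested, and no doublet caller was used.

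Genes induced by dissociation were higher in precursors than in other E17.5 cells for 6 of 8 counted members, and the list summed to 580, 1728, 2094 and 2782 CPM in the precursors of the 4 ages and 611 CPM in the other cells. Fos, an immediate early factor, was at 49.7, 210, 390 and 918 CPM, and Jun at 230, 973, 1142 and 975. This list was lowest in the E11.5 library, the unsorted one, as were the glial lists, and its part in the age differences was not tested.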

How the data were processed

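Drop-seq tables of cortical cells at 4 embryonic ages were used as the authors deposited them, as raw UMI counts per gene and cell. Per the submitters' processing notes the genome build was mm10. Which aligner, annotation and counter were used is not given in the sources used here. Cells were chosen by the rule given in the report, and genes missing from an age were set to 0. Counts were summed per group, scaled to CPM and compared as ratios, with the exact intervals of Poisson and binomial counts (95%, counting error only), and the calculation was tested on simulated data. A group at 0 was set to a floor of 3 counts over the group. Members and gene lists were chosen with earlier results of these data known. Named genes were the 12 largest and 12 smallest ratios of at least 50 UMIs, without rule, predicted, hemoglobin, ribosomal protein and mitochondrial genes, and up to 4 per list of at least 20 UMIs. Some genes that this rule names are not reported here. Others named for their role were chosen after their values were seen. Motifs were searched in RefSeq promoters (GRCm38.p6). Doublets were kept. Software was python 3.11.15, numpy 2.4.6, scipy 1.17.1 and pandas 2.3.3, with edgeR 4.0.16 in R 4.3.3 for TMM factors only. Alternatives changed the rule, depth, scaling, count minimum and fold.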

Additional observations from a re-analysis of the deposited data

Results flagged for a closer look

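A total of 31 cells in the E17.5 table of all cells met the same rule but were not among the cells the authors kept as cortical, and the comparisons above did not use them. With the 62 precursors they make 93 of the 2000 cells of that table. They held 58992 UMIs with a median of 1674 per cell, with a median marker sum of 4. Dlx1, a factor of ganglionic eminence cells, was at 1560 CPM in them against 71.7 CPM in the cortical precursors, and Dlx2 at 780 against 71.7. Emx2 had 1 UMI, at 17 against 108 CPM. Its relative Emx1 also had 1 UMI, at 17 against 14.3 CPM, and so did not differ in that way. The G2/M list was at 13680 against 2811 CPM, Fabp7 at 1543 against 20840 CPM, Apoe at 102 against 2546 CPM and Slc1a3 at 119 against 1312 CPM. The part of the cortical selection in these differences was not tested.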

How the results depend on the processing

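Counts of genes at least 2-fold higher and lower in E17.5 precursors depended on the count minimum, the fold and the depth. Between ages they also depended on leaving out cycling cells. Several of these settings also changed how many genes were tested. Against other E17.5 cells they were 706 and 779 at 3-fold, and 446 and 266 with the interval wholly beyond 2-fold. The higher count was 693 for genes of at least 50 UMIs, 3887 for genes of at least 1 UMI and 875 with cells thinned to 1000 UMIs. Against E11.5 they were 648 and 513 at 3-fold, 333 and 117 by interval and 330 and 714 thinned, with 686, 3841 and 1006 higher at 50 UMIs, at 1 UMI and under TMM scaling. Against E15.5 they were 103 and 208 at 3-fold, 57 and 23 by interval, 154 and 278 thinned, 102 and 171 at 50 UMIs, and 1325 and 1223 at 1 UMI. The E15.5 table was also cut at column 3000, which gave 343 lower genes with the first columns and 359 with the later ones, fewer cells leaving fewer genes tested. Precursors under 10 cycle UMIs gave 212 and 133 of 991 tested genes against E11.5 (21.4% and 13.4%). Against E15.5 they gave 179 and 176 of 2097 tested genes (8.54% and 8.39%). All precursors gave 16.9% and 14.6% of 9051 genes against E11.5, and 6.36% and 10.5% of 5673 against E15.5. The smaller counts thus came with fewer genes tested.

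Of 729 list medians recomputed, 629 kept within 0.5 of the reported log2 value, 95 moved further and 5 reversed, counted only from reported values of at least 1 in size. Of 2757 gene ratios, 2531 stayed within the counting interval, 212 moved outside it and 14 reversed. Against other cells, Mfng reversed to 0.44 with a marker sum of at least 5, 0.96 without cells holding oligodendrocyte precursor UMIs and 0.48 thinned. Col1a2 was at -0.51 with a marker sum of at least 5, Dlx6os1 at -0.28 with no neuronal UMI allowed and -0.74 thinned, and Reln at 0.43 against excitatory neurons only. Without the other cells of 100 or more erythroid UMIs, Hbb-bt was at 0.12, Hbb-bs at 0.21 and the erythroid list at 0.12. Against E11.5, Fgfr2 was at 0.48 without oligodendrocyte precursor UMIs. In precursors under 10 cycle UMIs, with 11 cells at E11.5, the reversed log2 values were -0.18 for the gliogenic list, 0.13 for G2/M, -4.44 for the erythroid list, -0.06 for the dissociation list, -0.06 for Egr1, -0.38 for Nfia and Sc5d, and -0.24 for Acadl. The cause of these reversals was not tested. The rule kept 55 cells with a marker sum of at least 5, 61 of at least 1000 UMIs, 42 with no neuronal UMI allowed and 59 thinned.

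The interval rule and the settings that leave out cycling, meningeal and microglial precursors or erythroid-rich cells were chosen after seeing the data.

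No paired analysis was possible because the replicate number that the ages share is only a name given in order and pairs no samples, and the 2 batches of E15.5 share a table in which no cell carries a batch. With 139445 UMIs in the precursors, 1 UMI was worth 7.17 CPM there, so genes of 1 to 3 UMIs have wide ratios.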

Other observations

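Some further gene groups of the precursors are given here. Of the adult neural stem cell list, 12 of 14 counted genes were at least 2-fold higher than in other E17.5 cells. This list shares Hopx, Tnc, Sox9 and Id3, among others, with lists described above, so its count is not separate from theirs. Cd9, a membrane protein of such cells, was at 20.2, 61.4, 156 and 531 CPM in precursors at the 4 ages, Vcam1, an adhesion protein, at 18.7, 64.0, 148 and 179 CPM, and Nr2e1, which keeps adult neural stem cells renewing, at 430, 740, 606 and 359 CPM. Thbs4 and Gfap were at 0 UMIs at E17.5. Ependymal genes had 17 UMIs in 10 precursors, 7 of them of Rsph1 and 5 of Fam183b, both parts of motile cilia, and Foxj1, the factor that directs ciliated cells, had 2.

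Npy, a neuropeptide of interneurons, had 43 UMIs in 7 precursors, 39 of them in the 5 cells with at least 5 UMIs of the interneuron list, and none at E11.5 or E13.5. A single cell held 30 of the 43. In these 5 cells Dlx6os1, like Npy a gene of the list that chose them, had 10 of its 14 UMIs. Fabp7 was at 20361 CPM against 20900 in the other 57 and Id3 at 2184 against 630. Of the 34 Id3 UMIs of the 5 cells, 23 came from 1 cell, the one that led Id3 among the cells with oligodendrocyte precursor UMIs. Median depth was 3131 UMIs in the 5 cells and 1910 in the others, and its part was not tested. Gsx1 had 6 UMIs in 2 precursors. Erythroid UMIs summed to 839 CPM in precursors and 4663 CPM in other cells, where 1 cell held 2561 UMIs.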
